A study of Mus musculus with 4 samples.

Results

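The 50 genes described here are cell-cycle genes, 22 that serve DNA replication in S phase and 28 that serve G2 phase and mitosis, out of 32288 features in the expression table. They are a list of gene names, set with earlier results of these data known but with no threshold on a value, and all 50 were found in the table. Levels were read in 13362 acinar-derived pancreas cells from 4 mice, over the 8 cell type labels and 9 tuft and enteroendocrine subtype labels that the authors deposited for these cells.

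Replication genes prepare and copy the genome. Cdc6 and Cdt1 load the Mcm helicase at origins, Pcna clamps the polymerases to DNA, and enzymes such as Tyms, Rrm2 and Dut keep the nucleotide pool supplied and free of uracil. Most of these genes are switched on by E2F factors at the entry into S phase. Mitotic genes follow later: cyclin B with Cdk1 starts mitosis, Aurora and Polo-like kinases build the spindle, and the anaphase-promoting complex (APC/C) with Cdc20 and Ube2c ends it. Many mitotic promoters carry a CHR element and CCAAT boxes, which are bound by the DREAM complex in resting cells and by B-Myb, FoxM1 and NF-Y in dividing cells. Adult acinar cells divide rarely, and can re-enter the cycle after injury such as pancreatitis.

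All 4 mice carried the Ptf1aCre-ERTM and ROSAYFP/+ alleles on a background backcrossed into CD-1, so that tamoxifen, given by oral gavage, marked acinar cells with the yellow fluorescent protein EYFP. Cre activity follows the Ptf1a promoter, which is active in adult acinar cells. Injury began at 10 weeks of age with injections of caerulein, a peptide that overstimulates acinar cells and causes pancreatitis. Mice were killed after different lengths of treatment, 2 after 2 weeks and 2 after 4 weeks, and their EYFP-positive cells were sorted and sequenced with the 10x 3′ method. No untreated mouse was among these groups, so levels cannot be set against an uninjured pancreas.

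The 13362 labelled cells, out of 21140 cells with deposited counts, carried 60224505 to 90547790 unique molecular identifiers (UMIs, each counting 1 captured RNA molecule) per mouse. Their median per cell was 20810 and 20590 at 2 weeks, then 15070 and 13460 at 4 weeks. Levels are given as counts per 1000000 UMIs (CPM) of a label in a mouse. A molecule is counted once at its 3′ end whatever its length, so gene length does not enter the CPM. Differences in capture between genes were not examined, so an order of genes or roles by CPM is an order of counted UMIs. Digestive enzyme transcripts took 53.3% of the UMIs of cells labelled Acinar, 41.1% of Acinar.Prolif, 24.5% of Acinar/MucinDuctal and at most 4.38% of the other types, which lowers the CPM of every other gene in the enzyme-rich cells. Sums of the lists and roles are therefore also given with enzymes left out of the library size, while values per mouse and gene are on all UMIs. Ductal-like, MucinDuctal, Tuft and enteroendocrine (EEC) cells each had the highest summed level of their own marker list among the types. Acinar cells had the highest level of the enzyme list. On all UMIs the 4 acinar identity markers stood at 344 CPM there against 396 in Acinar.Prolif. Enzymes lower the Acinar value more, so these means do not rank the types. The deposited labels were made from these same counts, so differences between labels are descriptions without a test. Among labelled cells, 23 barcode sequences occurred in more than 1 mouse.

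The promoters of the most abundant S and mitotic members show the different start regions of the module. The 250 bases before the transcription start are printed 5′ to 3′ on the gene's own strand (RefSeq, build GRCm38.p6), with motif matches in capitals. Dut (chr2:125247265-125247514, plus strand) encodes the dUTPase, Tyms (chr5:30073626-30073875, minus strand) thymidylate synthase and Pcna (chr2:132253181-132253430, minus strand) the sliding clamp. Mcm5 (chr8:75109259-75109508, plus strand) and Mcm6 (chr1:128359706-128359955, minus strand), helicase subunits, were added after the matches were seen because each holds E2F words. Ube2c (chr2:164769679-164769928, plus strand) is the APC/C's ubiquitin-conjugating enzyme, Hmgb2 (chr8:57511593-57511842, plus strand) a chromatin protein, and Birc5 (chr11:117848987-117849236, plus strand) the survivin subunit of the chromosomal passenger complex.
Dut: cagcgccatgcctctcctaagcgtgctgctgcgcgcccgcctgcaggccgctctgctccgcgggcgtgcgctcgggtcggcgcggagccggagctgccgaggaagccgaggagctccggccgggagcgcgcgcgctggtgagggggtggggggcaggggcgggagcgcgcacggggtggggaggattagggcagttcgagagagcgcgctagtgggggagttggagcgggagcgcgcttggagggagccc
Tyms: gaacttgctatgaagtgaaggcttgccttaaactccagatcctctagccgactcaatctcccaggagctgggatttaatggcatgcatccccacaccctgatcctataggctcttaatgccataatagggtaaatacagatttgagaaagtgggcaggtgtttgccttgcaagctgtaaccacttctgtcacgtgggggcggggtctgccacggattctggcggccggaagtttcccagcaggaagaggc
Pcna: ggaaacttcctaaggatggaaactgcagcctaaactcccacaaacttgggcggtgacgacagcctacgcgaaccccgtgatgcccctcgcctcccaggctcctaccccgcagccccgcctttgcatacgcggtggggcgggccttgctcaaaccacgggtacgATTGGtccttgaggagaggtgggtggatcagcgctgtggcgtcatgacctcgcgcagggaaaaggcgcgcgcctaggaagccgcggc
Mcm5: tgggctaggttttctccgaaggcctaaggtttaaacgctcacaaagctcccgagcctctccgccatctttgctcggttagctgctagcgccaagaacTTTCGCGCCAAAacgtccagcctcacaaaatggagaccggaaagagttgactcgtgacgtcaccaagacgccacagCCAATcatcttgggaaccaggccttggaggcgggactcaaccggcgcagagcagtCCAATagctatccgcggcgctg
Mcm6: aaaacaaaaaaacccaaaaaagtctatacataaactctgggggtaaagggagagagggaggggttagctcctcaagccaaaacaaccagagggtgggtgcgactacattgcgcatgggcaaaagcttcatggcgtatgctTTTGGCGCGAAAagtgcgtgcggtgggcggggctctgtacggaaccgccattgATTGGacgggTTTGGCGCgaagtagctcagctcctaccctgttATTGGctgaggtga
Ube2c: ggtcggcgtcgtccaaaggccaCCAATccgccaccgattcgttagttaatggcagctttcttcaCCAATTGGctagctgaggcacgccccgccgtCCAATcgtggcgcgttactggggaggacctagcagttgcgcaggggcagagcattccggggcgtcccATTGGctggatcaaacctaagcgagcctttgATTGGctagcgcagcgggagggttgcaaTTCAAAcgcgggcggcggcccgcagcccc
Hmgb2: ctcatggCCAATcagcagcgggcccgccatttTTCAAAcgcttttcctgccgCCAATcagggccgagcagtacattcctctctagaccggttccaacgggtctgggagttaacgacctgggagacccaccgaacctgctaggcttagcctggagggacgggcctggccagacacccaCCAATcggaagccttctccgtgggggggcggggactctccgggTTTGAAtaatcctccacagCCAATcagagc
Birc5: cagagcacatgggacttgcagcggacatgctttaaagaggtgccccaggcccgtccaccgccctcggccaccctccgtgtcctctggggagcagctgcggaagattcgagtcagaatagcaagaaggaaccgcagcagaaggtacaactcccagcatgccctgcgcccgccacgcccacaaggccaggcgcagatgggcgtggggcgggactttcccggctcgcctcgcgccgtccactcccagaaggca

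Words were searched on both strands from 250 bases before to 50 bases after the start, the E2F word in 4 spellings (TTTCCCGC, TTTCGCGC, TTTGCCGC and TTTGGCGC), the CHR word TTTGAA and the CCAAT box. Entries were found for 44 of 50 members, and not for Smc4, Ccna2, Tpx2, Aurkb, Mcm4 and Gins2. An E2F word stood in 9 of 20 S members (45.0%) and in 1 of 24 mitotic members (4.17%, Cdk1). Among all 27025 genes with a promoter entry, in the expression table or not, the share was 2.61%. These are called all genes in this paragraph only. The CHR word stood in 17 of 24 mitotic members (70.8%) and 2 of 20 S members (10.0%), against 20.2% of all genes. CHR and CCAAT together were found in 15 of 24 mitotic members (62.5%), 2 of 20 S members (10.0%) and 8.97% of all genes. In the printed lines, Ube2c has a CHR word 29 to 24 bases before the start with 6 CCAAT boxes, and Hmgb2 has a CHR word 30 to 25 bases before the start, another on the opposite strand 218 to 213 bases before it, and 4 CCAAT boxes. In Mcm5 and Mcm6 a pair of E2F words overlaps on opposite strands, and Mcm6 holds 1 more that stands apart. Dut, Tyms and Birc5 hold no match in the window, which says only that these letters are absent there.

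Mitotic members were highest in Acinar.Prolif, the label of proliferating acinar cells (894 cells, 104 to 456 per mouse). Their summed level was 2562 and 3232 CPM at 2 weeks, then 2741 and 2562 CPM at 4 weeks, a mean of 2774 ± 316 (SD, n = 4). In Ductal-like cells, the next type, it was 1200.0, 249, 465 and 762 CPM, and in Acinar cells 296, 93.1, 72.8 and 87.1 CPM. The lowest Acinar.Prolif mouse was above the highest mouse of every other type. All 28 mitotic members had their highest mean in Acinar.Prolif, with and without enzymes in the library size, and 27 of them were above the next type in all 4 mice (28 without enzymes). Their fold over the next highest type had a median of 4.41, from 1.76 for the condensin subunit Smc4 to 9.22 for Ube2c.

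**Figure D1:**
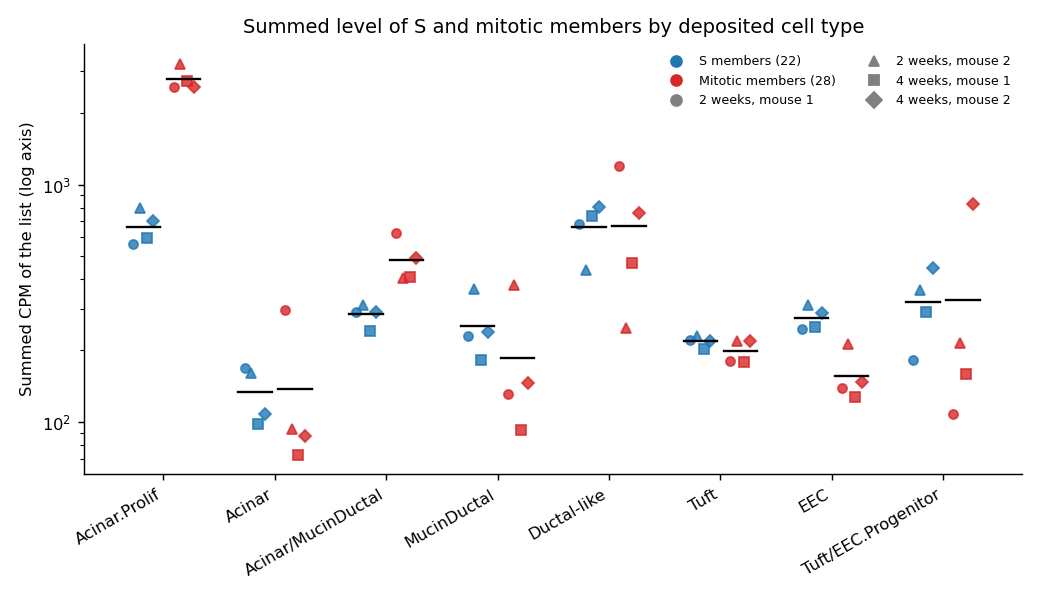
Summed CPM of the S members and of the mitotic members by cell type, 1 point per mouse, with the mean marked. Mitotic members in Acinar.Prolif sit at 2562 to 3232 CPM, above every other type, while S members in Acinar.Prolif (563 to 793) and Ductal-like cells (435 to 806.5) overlap.

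S members did not single out Acinar.Prolif in the same way. Their sum was 563, 793, 595 and 704 CPM there (mean 664 ± 105, n = 4) and 679, 435, 738 and 806.5 CPM in Ductal-like cells (mean 664.5 ± 162, n = 4), so the types overlapped. The other types followed at 319.5 ± 111 CPM in Tuft/EEC.Progenitor, 284 ± 29.0 in Acinar/MucinDuctal, 274 ± 31.2 in EEC, 253 ± 77.2 in MucinDuctal, 218.5 ± 11.5 in Tuft and 134 ± 35.9 in Acinar cells. From Tuft/EEC.Progenitor to Tuft, neighbours in this order differed by less than their spread. Of the 22 S members, 10 were highest in Acinar.Prolif, 9 in Ductal-like, 2 in MucinDuctal (Ung and Cdca7) and 1 in Tuft/EEC.Progenitor (Mcm7). This order turned with the scale: without enzymes in the library size, 18 were highest in Acinar.Prolif, 3 in Ductal-like (Mcm4, Slbp and Chaf1b) and 1 in MucinDuctal (Cdca7), and the S sum was 1123 ± 116 CPM in Acinar.Prolif against 698 ± 179 in Ductal-like cells. The median fold of S members in Acinar.Prolif over the highest other type was 0.864 on all UMIs and 1.40 without enzymes. The mitotic sum stayed higher in Acinar.Prolif on that scale, 4706 ± 307 against 697 ± 419 CPM.

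**Figure D2:**
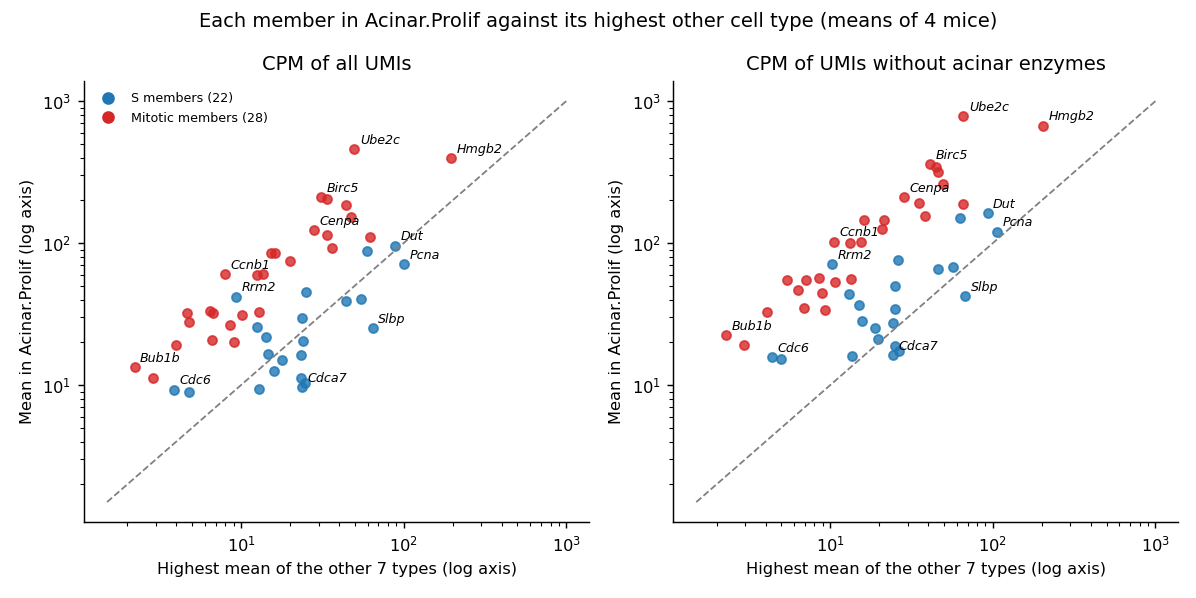
Mean CPM of each member in Acinar.Prolif against its highest mean among the other types, on log axes with the line of equality, with all UMIs (left) and without acinar enzymes (right). All 28 mitotic members lie above the line in both panels, Ube2c farthest on all UMIs, while S members lie on both sides of it, from Slbp below to Rrm2 above.

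Origin licensing, with 8 members (Mcm2 to Mcm7, Cdc6 and Cdt1), reached a summed 160.0 ± 29.4 CPM in Acinar.Prolif and 191 ± 50.7 CPM in Ductal-like cells. The order turned without enzymes in the library size, 270.1 ± 29.5 against 200.2 ± 53.6 CPM, with Acinar.Prolif higher in 4 of 4 mice. Mcm7 and Mcm6, subunits of the helicase, led it. Mcm7 stood at 36.4, 52.3, 36.2 and 36.3 CPM in Acinar.Prolif and at 41.1, 33.4, 32.7 and 53.0 CPM in Ductal-like cells, and its ranges overlapped. Mcm6 stood at 32.4, 42.5, 36.5 and 43.7 CPM in Acinar.Prolif. Ductal-like cells had a mean of 44.03 CPM for Mcm6, and Acinar.Prolif was higher in 1 of 4 mice; without enzymes its means were 65.9 in Acinar.Prolif and 46.06 CPM in Ductal-like cells, higher in 4 of 4. On all UMIs 2 of the 8 licensing members, Cdc6 and Mcm7, had a higher mean in Acinar.Prolif than in Ductal-like cells, and without enzymes 7 of 8 did, all but Mcm4. For Cdc6, the loader of the helicase, the Acinar.Prolif mean was 9.27 ± 1.38 CPM against 3.86 in Ductal-like cells, and it was higher in 4 of 4 mice on both scales.

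At the replication fork (Pcna, Gins2 and Cdc45), the summed level was 96.5 ± 17.4 CPM in Acinar.Prolif and 120.5 ± 41.9 CPM in Ductal-like cells. This order turned as well without enzymes, 163.8 ± 27.1 against 127.1 ± 47.9 CPM, with Acinar.Prolif higher in 3 of 4 mice. Pcna stood at 54.8, 78.1, 67.1 and 83.7 CPM in Acinar.Prolif. In Ductal-like cells it stood at 92.0, 52.6, 131 and 128 CPM, lowest in 2-week mouse 2. Without enzymes the Pcna means were 120.5 in Acinar.Prolif and 106.4 CPM in Ductal-like cells. Tuft cells held a steady 42.7, 43.6, 43.3 and 45.3 CPM of Pcna, below every Acinar.Prolif mouse. Gins2, part of the active helicase, was at 15.9, 18.8, 12.9 and 18.9 CPM in Acinar.Prolif, against a mean of 14.7 CPM in Ductal-like cells and 2.20 CPM in Tuft cells.

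Nucleotide supply was the S role with the highest level in Acinar.Prolif, 309.8 ± 42.0 CPM over 6 members against 206.5 ± 52.6 CPM in Ductal-like and 118 ± 10.6 CPM in EEC cells. Without enzymes the same sums were 525.0 ± 46.9, 216.5 ± 56.0 and 120.6 ± 10.7 CPM. Dut stood at 82.1, 103.5, 84.1 and 114.0 CPM in Acinar.Prolif. Ductal-like cells stood at 92.75, 49.6, 107.0 and 103.9 CPM of Dut, below Acinar.Prolif in 2 of 4 mice. EEC cells stood at 67.8, 75.0, 77.3 and 82.6 CPM of Dut, and their highest mouse was just above the lowest Acinar.Prolif mouse. Without enzymes the Dut means were 162.9 CPM in Acinar.Prolif, 92.9 in Ductal-like and 77.2 in EEC cells. Tyms stood at 83.0, 99.5, 80.6 and 90.4 CPM in Acinar.Prolif, above the 50.9, 35.9, 72.0 and 79.4 CPM of Ductal-like cells in every mouse. Rrm2, the cell-cycle subunit of ribonucleotide reductase, had the highest fold of the S members over the next type, 4.51. It stood at 38.1, 55.3, 34.8 and 39.8 CPM in Acinar.Prolif, 9.88, 6.67, 4.37 and 16.3 CPM in Ductal-like cells and a mean of 0.325 CPM in Tuft cells.

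Chromatin members of S phase were higher in Ductal-like cells (147 ± 23.6 CPM over 5 members) than in Acinar.Prolif (97.4 ± 21.3 CPM) on all UMIs. Without enzymes the order turned, 154.0 ± 28.9 against 164.4 ± 24.7 CPM, within the spread of the mice and with 2 of 4 mice on each side. Slbp, which binds the end of histone messages, stood at 60.8, 47.1, 72.0 and 77.4 CPM in Ductal-like cells and at 18, 35.2, 20.6 and 26.7 CPM in Acinar.Prolif, without overlap. EEC cells also exceeded Acinar.Prolif for Slbp, at 43.2, 53.3, 43.1 and 42.8 CPM. Hells, a chromatin remodeller, went the other way in the mean, with 24.1, 36.9, 26.9 and 30.8 CPM in Acinar.Prolif and a mean of 23.8 CPM in Ductal-like cells, higher in 2 of 4 mice. Cdca7, a partner of Hells, was highest in MucinDuctal cells, at 16.3, 34.9, 21.3 and 22.6 CPM, against 7.96, 13.7, 6.99 and 9.87 CPM in Acinar.Prolif; these ranges did not overlap. Chaf1b, of the histone chaperone CAF-1, stood at 18.2, 14.2, 37.1 and 24.4 CPM in Ductal-like cells and at 10.3, 12.1, 9.97 and 12.4 CPM in Acinar.Prolif. Without enzymes Slbp, Cdca7 and Chaf1b still had the lower mean in Acinar.Prolif, but Slbp and Chaf1b were higher there in 1 of 4 mice, and Hells had 50.2 against 25.0 CPM, higher in 4 of 4.

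Without enzymes in the library size the 6 mitotic roles summed to 765.2 CPM (cyclins and Cdk1 with Cks2), 187.5 (kinases), 924.3 (APC/C), 816.5 (centromere), 490.9 (spindle and cytokinesis) and 1521 CPM (chromosome structure) in Acinar.Prolif. Each was above the same sum of every other type in 4 of 4 mice. On all UMIs, cyclins and Cdk1 with its partner Cks2 summed to 451 ± 47.1 CPM in Acinar.Prolif over 5 members, and to 116 ± 85.0 CPM in Ductal-like cells. Cks2 stood at 135, 177, 143 and 157 CPM and Cdk1 at 81.0, 104.5, 80.6 and 103 CPM in Acinar.Prolif. Both were above Ductal-like cells (means of 47.3 and 36.4 CPM) in 4 of 4 mice. Ccnb1, cyclin B1, stood at 64.95, 73.4, 54.7 and 48.0 CPM in Acinar.Prolif. The next type was Acinar/MucinDuctal, at 12.9, 5.39, 6.83 and 6.86 CPM, and Acinar cells of 2-week mouse 1 had 6.01 CPM, against 0.864 to 1.77 in its other mice. The mitotic kinases were the lowest mitotic role, 111 ± 15.5 CPM over 5 members against 21.8 ± 16.4 CPM in Ductal-like cells. Plk1, Polo-like kinase, stood at 27.6, 38.2, 31.1 and 31.8 CPM and Aurka, Aurora A, at 25.7, 35.2, 27.1 and 22.6 CPM in Acinar.Prolif. No other type exceeded a mean of 4.77 CPM for either of them.

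The APC/C pair summed to 545.0 ± 69.7 CPM in Acinar.Prolif against 66.0 ± 37.6 CPM in Acinar/MucinDuctal and 2.79 ± 0.701 CPM in Tuft cells. Ube2c, the highest member of all, stood at 447, 537, 456 and 398 CPM in Acinar.Prolif. In Acinar cells it was at 41.2, 5.42, 5.28 and 8.94 CPM, with 2-week mouse 1 far above the other mice, and in Tuft cells at 0.563 ± 0.193 CPM. Cdc20, the APC/C's activator, stood at 94.3, 98.8, 80.4 and 68.4 CPM in Acinar.Prolif, against a mean of 16.2 CPM in Acinar/MucinDuctal cells.

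Centromere members (Birc5, Cenpa, Cenpe and Cenpf) summed to 480.3 ± 46.1 CPM in Acinar.Prolif. Birc5 stood at 200, 216, 207 and 217 CPM. Cenpa, the centromeric histone, stood at 115.5, 138, 133 and 108 CPM. Tuft cells were the next highest type for Cenpa, at 31.6, 27.3, 25.6 and 27.6 CPM, with a Cenpa UMI in 31.6% to 39.8% of cells, while their Birc5 was at 1.40 ± 0.518 CPM and their Mki67 at 1.24 ± 0.743 CPM. Spindle and cytokinesis members summed to 289.6 ± 44.1 CPM over 8 members in Acinar.Prolif. Nusap1, which bundles spindle microtubules, stood at 58.9, 97.5, 77.3 and 63.5 CPM, and Tpx2, the activator of Aurora A, at 57.2, 67.0, 59.6 and 53.8 CPM. In the next type, Ductal-like cells, their means were 19.9 and 12.6 CPM.

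Chromosome structure members (Hmgb2, Mki67, Top2a and Smc4) were the most abundant role, 897 ± 113 CPM in Acinar.Prolif and 334 ± 149 CPM in Ductal-like cells. Mki67, the proliferation antigen Ki-67, stood at 186, 232.5, 225 and 169 CPM in Acinar.Prolif and at 68.4, 7.09, 17.5 and 34.6 CPM in Ductal-like cells. Hmgb2 stood at 370.4, 498, 349 and 373.5 CPM in Acinar.Prolif, and it was also present everywhere else, at 285, 108, 172 and 216 CPM in Ductal-like, a mean of 90.6 CPM in Tuft and 87.9 CPM in EEC cells. Hmgb2 alone made up 56.2% of the mitotic UMIs of EEC cells and 45.4% of those of Tuft cells, against 14.3% in Acinar.Prolif. Hmgb2, Cks2 and Smc4 and, among S members, Pcna, Slbp and Dut were taken as broadly expressed, since cells outside the cycle can also express them. They were set by name, with no rule on values, and include the highest members of EEC and Tuft cells. A large share there thus follows from the choice. These 6 broadly expressed members held 80.5% of mitotic UMIs in EEC, 71.2% in Tuft and 23.8% in Acinar.Prolif cells, and 55.9%, 54.9% and 28.9% of S UMIs. Cenpa, not among them, held 14.05% of mitotic UMIs in Tuft cells, against 14.19% for Smc4.

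The balance between the lists differed by type. The log2 ratio of S to mitotic UMIs was −2.19, −2.03, −2.21 and −1.86 in Acinar.Prolif (mean −2.07 ± 0.16). It was −0.74 ± 0.30 in Acinar/MucinDuctal, 0.14 ± 0.13 in Tuft, 0.18 ± 0.69 in Acinar, 0.18 ± 0.74 in Ductal-like, 0.37 ± 0.84 in Tuft/EEC.Progenitor, 0.61 ± 0.46 in MucinDuctal and 0.83 ± 0.20 in EEC cells (n = 4 each). Every other type was above Acinar.Prolif in 4 of 4 mice. Without the 6 broadly expressed members the ratio was 2.04 ± 0.39 in EEC, 2.01 ± 2.03 in Tuft/EEC.Progenitor, 1.55 ± 1.02 in MucinDuctal, 0.79 ± 0.18 in Tuft, 0.56 ± 1.08 in Ductal-like, 0.24 ± 0.80 in Acinar, −0.68 ± 0.45 in Acinar/MucinDuctal and −2.17 ± 0.15 in Acinar.Prolif cells. The order of means among the types from EEC to Acinar changed, by less than the spread of the mice. In Tuft/EEC.Progenitor cells, 2-week mouse 1 and 4-week mouse 1 rested on 2 and 5 mitotic UMIs. The lists hold different genes, so a ratio of 0 has no meaning of its own and only the order of types can be read.

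Within types, single mice stood apart. The ratio of 2-week mouse 1 was −0.81 in Acinar cells, against 0.78, 0.43 and 0.31 in the other mice, and −0.82 in Ductal-like cells, against 0.80, 0.67 and 0.08. That mouse also held the most Acinar.Prolif cells, 15.3% of its labelled cells against 2.90%, 6.65% and 3.70%; the part of this share in the ratio was not tested. In MucinDuctal cells it was 2-week mouse 2 that had the lowest ratio, −0.05, against 0.81, 0.97 and 0.72. In Tuft/EEC.Progenitor cells 4-week mouse 2 had −0.90, against 0.75, 0.74 and 0.87 (the first from 10 cells with 27 S and 16 mitotic UMIs), and without it the mean of that type was 0.79 in place of 0.37.

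**Figure D3:**
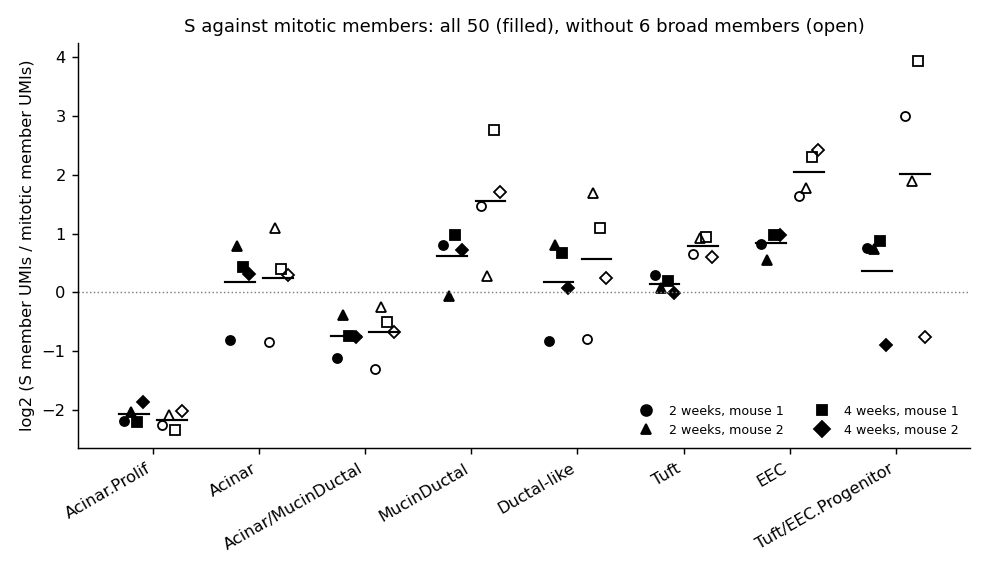
Log2 ratio of S to mitotic member UMIs by cell type, 1 point per mouse, with all members and without the 6 broadly expressed ones. Acinar.Prolif lies near −2.07 with all members, below every other type, and EEC cells lie highest among types with all members at 0.83.

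At least 5 member UMIs were found in 893 of 894 Acinar.Prolif cells, and also in 50.5%, 72.6%, 39.6% and 46.5% of the cells of all other types together (mean 52.3% ± 14.3). Within a type and mouse, cells that passed had the higher median depth in 28 of 29 pairs of type and mouse with cells on both sides. When each cell was thinned to 5000 UMIs, the shares were 94.9% ± 2.31 in Acinar.Prolif and 10.8%, 11.7%, 4.70% and 9.98% in the other types together (mean 9.29% ± 3.14). Per type, the thinned share was 26.8% in Ductal-like (83.8% at own depth), 22.4% in Acinar/MucinDuctal (35.7%), 11.5% in Tuft/EEC.Progenitor (68.3%), 9.73% in EEC (56.5%), 7.595% in Acinar (40.2%), 7.004% in Tuft (72.7%) and 6.07% in MucinDuctal cells (61.7%). Thinning left out 276, 189, 374 and 757 shallower cells by mouse, and 1155 of these were among the 1955 Acinar/MucinDuctal cells. The thinned share of that type therefore covers its deeper cells only. In 4-week mouse 2 it was 35.4%, above the 29.7% at own depth. The order of types changed between the scales. Acinar.Prolif held 11.9% of the 7523 cells with at least 5 member UMIs, 21.9% of all S UMIs and 54.3% of all mitotic UMIs, pooled over mice. By mouse, its share of such cells was 26.3%, 3.95%, 15.2% and 7.63%, of S UMIs 35.5%, 8.36%, 28.6% and 22.7%, and of mitotic UMIs 62.6%, 28.3%, 72.6% and 55.4%.

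**Figure D4:**
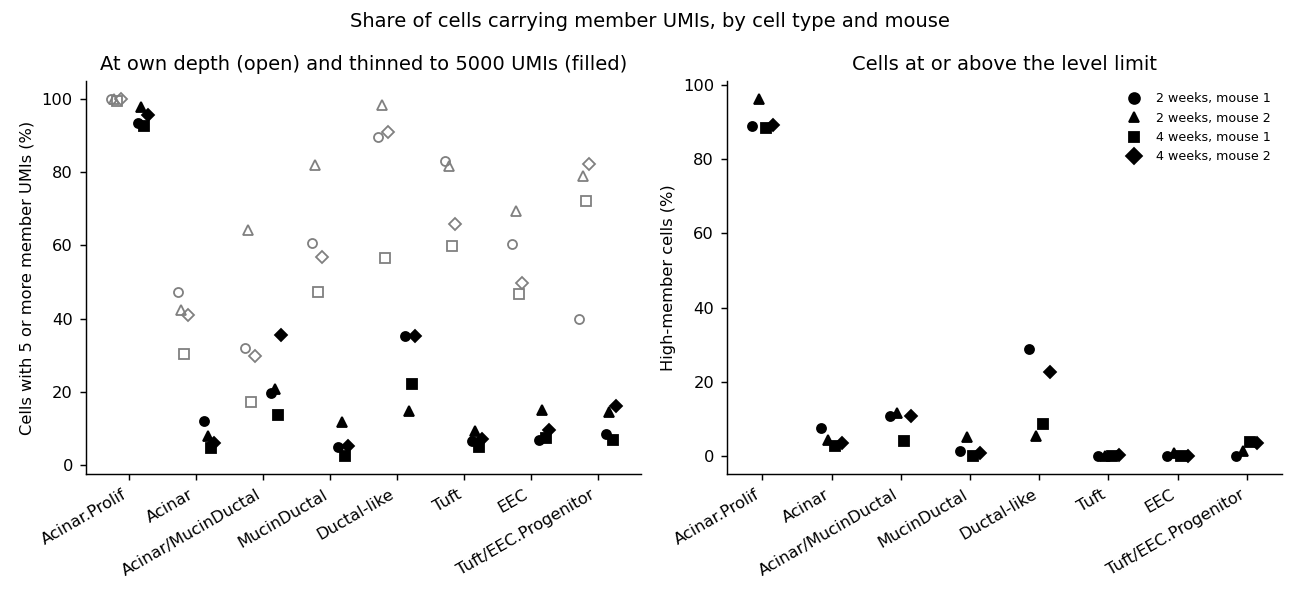
Percent of cells with at least 5 member UMIs by cell type and mouse, at the cells' own depth and after thinning each cell to 5000 UMIs. Acinar.Prolif stays near the top on both scales (99.9% and 94.9%), while Tuft cells go from 72.7% to 7.004%.

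Cells with at least 5 member UMIs were said to lean to S or to mitotic members where 1 list held at least 66.7% of their member UMIs, and to be mixed otherwise. In Acinar.Prolif 79.2% leaned mitotic and 4.26% leaned S. In MucinDuctal cells 55.2% leaned S and 6.16% mitotic, and in EEC cells 50% and 10.3%. In Acinar/MucinDuctal cells 41.7% leaned mitotic and 27.8% leaned S, pooled over mice. Mitotic-leaning cells numbered 36, 42, 23 and 168 by mouse and S-leaning cells 29, 88, 18 and 44. S-leaning cells were thus the more numerous in 2-week mouse 2 only, and most of the pooled mitotic-leaning cells came from 4-week mouse 2.

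A stricter measure on all UMIs, chosen after the data were seen, counted cells whose level of the 44 remaining members was at least 969.4 CPM, the 10th percentile of Acinar.Prolif cells, with at least 5 UMIs. It found 497 such cells among 12468 outside Acinar.Prolif (3.99%, exact Clopper-Pearson 95% interval 3.65% to 4.35%, which covers counting error only): 162, 138, 40 and 157 by mouse. Within 10% of this limit lay 56 cells on the inside and 64 on the outside. Of the 497, 298 leaned mitotic, 108 leaned S and 91 were mixed. Acinar cells gave 191 (5.17%), with 113 of them from 2-week mouse 1. Acinar/MucinDuctal cells gave 190 (9.72%), of which 159 came from deposited cluster 3 (968 cells) and 22 from cluster 4 (928 cells). Ductal-like cells gave 21 of 139 (15.1%), MucinDuctal cells 87 of 3983 (2.18%), EEC cells 3 of 1208 and Tuft cells 1 of 1280. Enzymes took 41.1% of the UMIs in Acinar.Prolif, 53.3% in Acinar and 4.38% in Ductal-like cells. The limit is thus easier to reach in enzyme-poor types, and these shares do not rank the types. Cluster 3 of Acinar/MucinDuctal had a median of 4296 UMIs per cell, a depth at which 5 member UMIs are enough to pass. Of the 87 MucinDuctal cells, 71 came from 2-week mouse 2 and 82 from cluster 1. No doublet caller was run, and a droplet that holds a dividing and a resting cell would also be counted here; its part was not tested.

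Tuft and enteroendocrine subtypes were all below Acinar.Prolif for mitotic members. Their sum was 173 ± 3.64 CPM in Tuft-3, 199 ± 27.0 in Tuft-2 and 250.8 ± 52.2 in Tuft-1, and 142 ± 50.3 in Epsilon (Ghrl+), 164 ± 20.5 in ECL (Tac1+), 178 ± 25.0 in Delta (Sst+), 138 ± 63.3 in Ppy+ and 238.5 ± 111 in EEC-Progenitor (Neurog3+) cells. The ninth label, MucinDuctalProgenitor (5 to 118 cells per mouse), had 185 ± 59.8 CPM of mitotic and 302 ± 49.85 CPM of S members. No cell of Tuft-1, Tuft-2 or Tuft-3 (210, 457 and 494 cells) passed the 969.4 CPM measure, which allows a share of up to 1.43%, 0.656% and 0.607% by counting error only, over cells pooled from the mice; 166 of the 210 Tuft-1 cells came from 2-week mouse 2. Neurog3+ progenitors, the immature members of their lineage, had an S sum of 320.6 ± 45.1 CPM, against 299 ± 16.3 in ECL, 293 ± 25.4 in Delta, 263 ± 64.3 in Epsilon and 218 ± 27.1 in Ppy+ cells. The ranges of Neurog3+, ECL, Delta and Epsilon cells overlapped. Without the broad members Pcna, Slbp and Dut, the S sum was 154 to 215 CPM in Neurog3+ progenitors, above the highest mouse of ECL (138.5), Delta (132), Epsilon (150.0) and Ppy+ (99.6) cells. MucinDuctalProgenitor cells had 167 to 242 CPM on that measure and overlapped them. With all S members and each mouse left out, the mean was 304.5 to 341 CPM in Neurog3+ and 296 to 341 CPM in Tuft-1 cells. It was 217 to 234.5 CPM in Tuft-2 and 182 to 193 CPM in Tuft-3 cells.

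Time of treatment was the comparison that could be tested, 4 against 2 weeks with 2 mice each. edgeR's quasi-likelihood test was run in 14 labels with at least 20 cells in every mouse. Its p-values were adjusted over the genes tested in a label, called all genes below. No member passed an adjusted p of 0.05 in any label. The share of all genes that passed was 0% in Acinar, Acinar/MucinDuctal, Ductal-like, EEC, MucinDuctal and Tuft, 0.00995% in Acinar.Prolif, 0.0154% in Delta, 0.0816% in ECL, 0.0453% in EEC-Progenitor, 0.159% in Ppy+, 0.114% in Tuft-3 and 0% in Epsilon and Tuft-2 cells. DESeq2 also called 0 members. At an unadjusted p under 0.05 there were 15 of 48 members in MucinDuctal (background 5.39%), 6 of 49 in Acinar (2.79%), 4 of 35 in Ductal-like (5.27%), 2 of 22 in EEC (4.03%), 2 of 50 in Acinar.Prolif (2.45%), 0 of 23 in Tuft (6.74%) and 0 of 48 in Acinar/MucinDuctal cells (3.42%). All 15 in MucinDuctal and all 6 in Acinar cells were lower at 4 weeks (background 3.08% and 2.06%). Among subtypes there was 1 of 13 in EEC-Progenitor (5.08%), 2 of 10 in Epsilon (3.81%) and none in Delta (6.17%), ECL (5.17%), Ppy+ (6.59%), Tuft-2 (3.91%) and Tuft-3 cells (6.79%).

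Acinar.Prolif cells had medians near 0 with time. The median log2 change (4 over 2 weeks, TMM-scaled) was 0.11 for S and 0.14 for mitotic members, against 0.01 for all genes. Both 4-week mice were above both 2-week mice for 16 of 50 members (32%, against 14.4% of all genes) and below them for 3 (15.0% of all genes). Tk1, thymidine kinase, had the smallest p: 22.2 and 20.5 CPM at 2 weeks and 26.9 and 34.5 CPM at 4 weeks. Its log2 change was 0.52 ± 0.19 (SE), with an unadjusted p of 0.0217 and an adjusted p of 1.00. In the plain CPM sums the groups overlapped, and enzymes were higher at 4 weeks in both mice. Scaling by CPM moved the median of all genes by −0.19 in this label, so TMM-scaled values are given for time.

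MucinDuctal cells had medians of −0.82 for S members and −1.87 for mitotic members, with 46 of 48 members negative and none called. Both 4-week mice were below both 2-week mice for 25 of 48 members (52.1%, against 18.4% of all genes) and above them for 1 (18.5%). Mcm5, with the smallest p, was at 5.80 and 8.996 CPM at 2 weeks and 2.34 and 2.89 CPM at 4 weeks, a log2 change of −1.51 ± 0.31 (adjusted p = 0.824, edgeR). Mki67 was at 4.55, 21.8, 1.29 and 3.33 CPM, and Ccnb1 at 1.14, 3.12, 0.176 and 0.355 CPM, in each case highest in 2-week mouse 2. Without that mouse the medians were −0.22 and −0.64. Without 2-week mouse 1, 8 members passed, all lower at 4 weeks (Mcm3, Mcm5, Hells, Tpx2, Cenpe, Cenpa, Ckap2 and Ccnb1) out of 50 tested, against 1.34% of all genes, in a fit where the lone 2-week mouse was assumed to vary like the others. The make-up of the label moved with the mice: cluster 1 held 1138 of 1388 MucinDuctal cells in 2-week mouse 2 and 113 of 371, 228 of 961 and 551 of 1263 in the others. The 5 mucin markers stood at 33460 CPM in 2-week mouse 2 and at 93830 to 125700 CPM in the others, and their part in the change was not tested. Within cluster 1 the mitotic sum was 182, 434, 145 and 226 CPM, and within cluster 2 it was 113, 128, 81.2 and 85.9 CPM, lower at 4 weeks in both mice.

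Acinar cells had negative medians too, −0.47 for S and −0.93 for mitotic members, with 47 of 49 negative. Both 4-week mice were below both 2-week mice for 15 of 49 members (30.6%, against 17.2% of all genes), 11 of them S members, and above them for 1 (14.0%). Mcm4, with the smallest p, was at 2.998 and 3.406 CPM at 2 weeks and 1.68 and 1.61 CPM at 4 weeks, a log2 change of −0.96 ± 0.28 (adjusted p = 0.998, edgeR). The mitotic median rested on 2-week mouse 1: Ube2c was at 39.2, 4.16, 6.43 and 10.1 TMM-scaled CPM, and without that mouse the median was 0.59 for mitotic and −0.10 for S members. Without 2-week mouse 2 the S median was −0.80, and 11 of 50 members passed, all lower at 4 weeks, against 1.01% of all genes, again with a lone 2-week mouse. With all 4 mice but no filter on low genes, 9 of 50 members passed, against 1.48% of all genes. The make-up of the label also moved with the mice. Cluster 8 held 285 of 1461 and 256 of 583 Acinar cells at 2 weeks, then 120 of 762 and 78 of 892. On all UMIs its S sum was 260, 274, 187 and 197 CPM, and that of cluster 0 was 116, 87.85, 81.7 and 87.67 CPM. In cluster 6 it was 222, 122, 130 and 124 CPM, and the time points overlapped. The part of this make-up in the changes was not tested.

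Ductal-like cells had a median of 0.56 for S and −0.13 for mitotic members; the difference between the lists was not tested. The mitotic median was 1.76 without 2-week mouse 1 and −1.06 without 2-week mouse 2, and the S median 1.04 and 0.23. Both 4-week mice were above both 2-week mice for 7 of 35 members (20.0%, against 17.5% of all genes), all 7 S members, and below them for none (17.8%). Tyms was at 50.8 and 37.3 CPM at 2 weeks and 76.5 and 79.4 CPM at 4 weeks, a log2 change of 0.84 ± 0.26 (adjusted p = 0.900, edgeR), and Pcna at 91.7, 54.6, 139 and 128 CPM. The 4-week values rest on 23 and 22 cells. The first 4-week mouse had a median of 8889 UMIs per cell, against 21039 to 38506 in the others, and 99680 CPM of enzymes against 21020 to 27720. The second had 71.3 CPM of T cell markers against 0 to 0.417, and the part of these values in the changes was not tested. Acinar/MucinDuctal medians were −0.07 and −0.03. In that label macrophage markers stood at 53.7 and 61.7 CPM at 2 weeks and 219 and 237 at 4 weeks, B cell markers at 6.28 and 7.23, then 55.05 and 29.1, and the median depth was 19556 UMIs in 2-week mouse 2 against 2659 to 3555 in the others; their part was not tested. There Ube2c had the smallest p, at 85.9, 45.5, 26.4 and 40.3 CPM, a log2 change of −0.94 ± 0.38 (adjusted p = 0.999, edgeR). This change went from −1.33 to −0.42 when each mouse was left out. Tuft medians were −0.15 and −0.12 and EEC medians −0.08 and −0.15. Leaving out 1 mouse turned the sign of both Acinar/MucinDuctal medians (−0.32 to 0.06 and −0.38 to 0.22), the Tuft mitotic median (−0.21 to 0.18) and the EEC S median (−0.20 to 0.10). The Tuft S median kept its sign but went from −0.39 to −0.07, and the EEC mitotic median from −0.80 to −0.19. The 4-week mice were below and above the 2-week mice for 6 and 4 of 48 members in Acinar/MucinDuctal (16.5% and 16.0% of all genes), 4 and 1 of 23 in Tuft (17.5% and 17.9%) and 2 and 3 of 22 in EEC cells (17.2% and 16.8%). Cenpa in EEC cells was at 3.77, 5.17, 1.70 and 0.834 CPM (log2 change −1.81 ± 0.56, adjusted p = 0.986, edgeR), and Mcm2 in Tuft cells at 10.6, 8.92, 6.85 and 5.65 CPM (−0.62 ± 0.30, adjusted p = 0.778, edgeR). In the subtypes, Dut in EEC-Progenitor cells was at 36.3, 41.0, 59.5 and 69.9 CPM and Smc4 in Epsilon cells at 31.5, 33.2, 16.7 and 17.6 CPM.

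**Figure D5:**
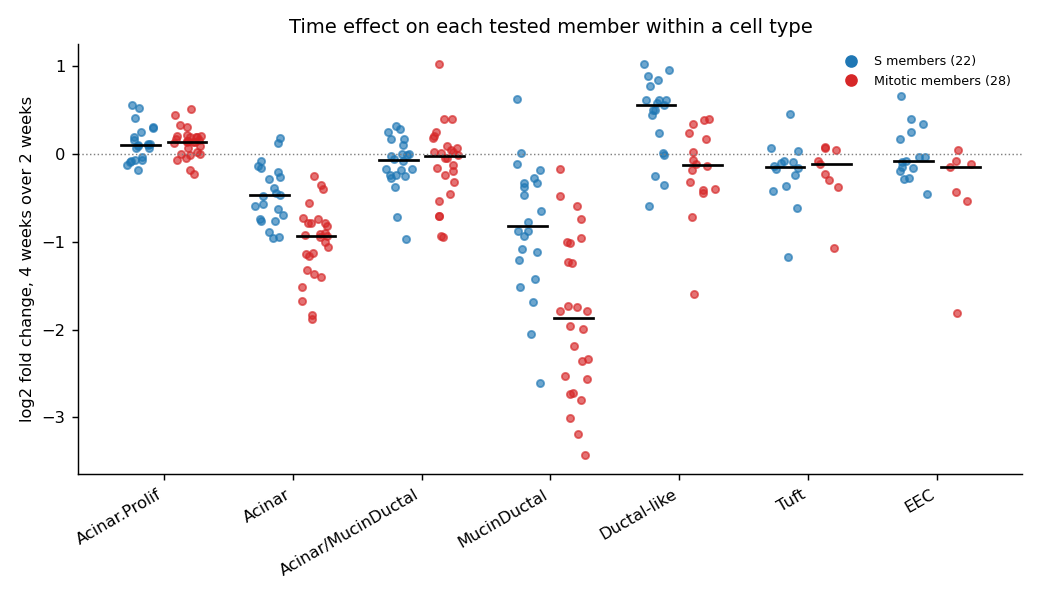
Log2 change of each tested member from 2 to 4 weeks in the 7 tested cell types, S and mitotic members apart, with medians marked. No point passed the adjusted test, and the medians lie lowest in MucinDuctal cells (−0.82 and −1.87).

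A wider set of cell-cycle genes, 35 more of S phase and 35 more of mitosis, gave no call in any label either. In MucinDuctal cells its medians were −0.70 (32 tested) and −1.14 (28 tested), and in Acinar cells −0.47 (34 tested) and −0.99 (33 tested). In Acinar.Prolif they were 0.14 and 0.18, and in Ductal-like cells 0.55 and 0.20. The smallest p in MucinDuctal cells was that of E2f8, a repressor of E2F targets, at 0.796 and 1.37 CPM at 2 weeks and 0.0585 and 0.178 CPM at 4 weeks. In Acinar cells it was that of Atad2, an ATPase bound to chromatin, at 5.16, 4.02, 2.47 and 2.15 CPM. Tipin, which stabilises paused forks, was at 15.2, 7.80, 25.5 and 26.5 CPM in Ductal-like and 8.25, 8.10, 12.2 and 16.0 CPM in Tuft cells.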

How the data were processed

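UMI counts per gene and cell were the values deposited by the authors, with their cell type and cluster labels. Per the submitters' processing notes, Cell Ranger 4.0.0, Seurat 3.2.3 and the build mm10 were used. The labelled cells held at least 1001 UMIs and at most 6.00% mitochondrial UMIs. Counts were summed per mouse and label and tested with edgeR 4.0.16 (R 4.3.3, limma 3.58.1), quasi-likelihood with TMM scaling and Benjamini-Hochberg adjustment over all genes, on the main design of 2 against 2 mice. DESeq2 1.42.0, no gene filter, a library size without 25 acinar enzyme genes, a fit that is not robust and leaving out each mouse were alternatives. The p-values weigh a change against the spread between the 2 mice of each group. edgeR estimates that spread with information shared over all tested genes of the label. Python 3.11.15, numpy 2.4.6, scipy 1.17.1 and matplotlib 3.10.9 made the sums, thinning (mean of 20 seeded draws) and figures. The time test was tried on simulated counts of each label in which 200 genes were changed 4-fold. Among the cell types it recovered 130 (Ductal-like) to 174 (Acinar.Prolif) of them, with up to 29 false calls (MucinDuctal). A label without a call can therefore still hold changed genes. Fully described members were, by rule, the 2 highest of each role in Acinar.Prolif and the smallest p in each label; others were named after their values were seen. Members and lists were chosen with earlier results of these data known. No doublet caller was run, and no label says how doublets were handled. Markers of 12 lists were read in each label. In Acinar.Prolif the summed means were 396 CPM for acinar identity, 326 for ductal, 3389 for mucin, 9.32 for tuft, 18.0 for enteroendocrine, 3.31 for B cell, 2.16 for T cell, 36.1 for macrophage, 1.57 for Ptprc, 18.7 for fibroblast and 0.857 for endothelial markers. The enzymes stood at 53.3% of Acinar UMIs.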

Additional observations from a re-analysis of the deposited data

Results flagged for a closer look

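The summed mitotic level in Acinar cells was 296 CPM in 2-week mouse 1, far from the 72.8 to 93.1 CPM of the other mice. In Tuft/EEC.Progenitor cells it was 828 CPM in 4-week mouse 2 (28 cells with 361 mitotic UMIs). Of the 23 cells there with at least 5 member UMIs, 1 leaned mitotic. In EEC-Progenitor (Neurog3+) cells the summed mitotic level was 403 CPM in the same mouse. These 3 stray values came from 42 groups of 4 mice examined with Dixon's 95% critical value, and chance alone gives about 1 in 20. Subtype groups hold cells that are also in type groups, so the 42 groups are not independent. In 4-week mouse 2, Neurog3+ cells held 249 mitotic UMIs without the broadly expressed members, against 84 in all EEC cells. Many of the 249 therefore came from cells with another type label. Tuft/EEC.Progenitor cells of that mouse held 218, so the Tuft/EEC.Progenitor and Neurog3+ values may rest partly on the same cells. Each of the 3 is 1 mouse in a group of 4, and no cause was tested.

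No S member passed the time test in any label. The labels named here were picked because their S sums separated the time points, in different directions. Such separation was frequent among single genes. Both 4-week mice were below both 2-week mice for 17.2% of all genes in Acinar and 17.5% in Tuft cells, and above them for 17.5% in Ductal-like cells. With enzymes left out of the library size, the S sum changed from 2 to 4 weeks by −0.44 on the log2 scale in Acinar cells. It changed by −0.10 in Tuft cells, and in both types both 4-week mice were lower. In Ductal-like cells it changed by 0.53, both 4-week mice being higher. The Tuft-2 subtype went the other way from Tuft cells as a whole, by 0.18, both 4-week mice being higher. Tuft-3 cells, the subtype with the lowest S sum, were 35 of 83 and 181 of 665 Tuft cells at 2 weeks and 113 of 212 and 165 of 320 at 4 weeks, and the part of this make-up was not tested. In Tuft cells macrophage markers stood at 101 and 52.1 CPM at 2 weeks and 13.5 and 10.7 CPM at 4 weeks. Ptprc stood at 25.8 and 37.8, then 55.9 and 82.6 CPM, and the part of these values was not tested either. The cluster make-up of Acinar cells also moved between the mice, and its part was not tested. The difference in the S sum between the labels was not tested.

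Cells outside the deposited labels that carried B cell markers (611 cells with at least 3 of 5 markers) also held the module, with a mean of 667 CPM of S members and 1215 CPM of mitotic members, or 404 and 543 CPM without the 6 broadly expressed members. They could not serve as a background without the module.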

How the results depend on the processing

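No paired analysis was possible because the labels give no replicate numbers, and the numbers used here only name the mice of each group in the order of deposit. Without a gene filter, 9 members were called in Acinar (1.48% of all genes), 1 in Acinar/MucinDuctal (0.687%) and 1 in EEC-Progenitor cells (0.300%), and 0 with all settings but leaving out a mouse in the others. Leaving out each mouse gave 0 to 11 calls in Acinar, 0 to 1 in Acinar.Prolif, 0 to 1 in Acinar/MucinDuctal, 0 to 6 in Ductal-like, 0 to 8 in MucinDuctal, and 0 to 1 in EEC-Progenitor and Epsilon cells, with 1 group down to a lone mouse. All genes called in the fits with the most member calls were 1.01%, 1.27%, 0.758%, 3.11%, 1.34%, 0.124% and 2.07% in the same order. The share of cells with the set number of member UMIs was read in Acinar.Prolif and in the other types together. It was 100% and 71.5% at 3 UMIs, 96.9% and 22.5% at 10, and 99.0% and 24.7% without the 6 broad members. After thinning it was 94.9% and 9.29% at 5000 UMIs and 51.0% and 1.71% at 1500. By the 969.4 CPM measure it was 90.6% and 4.00%. That limit is the 10th percentile of Acinar.Prolif cells, so their share was fixed beforehand and says nothing about them. The log2 ratio of S to mitotic UMIs went from −0.0236 to 0.51 in Acinar and from −0.0246 to 0.52 in Ductal-like cells when each mouse was left out, turning negative without 2-week mouse 2. Without the 6 broad members and without the most abundant members it was 2.04 and 1.56 in EEC, 1.55 and 1.11 in MucinDuctal, and 0.79 and 0.68 in Tuft cells. The log2 of S members in Acinar.Prolif over Ductal-like cells was 0.02, but 0.72 without enzymes and −0.26 to 0.13 when each mouse was left out, lowest without 2-week mouse 2. Causes were not tested.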
